A study of Mus musculus with 20 samples.

Results

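The messenger RNA levels of 10 genes of iron storage and transport were followed in mouse macrophages: Fth1, Ftl1, Tfrc, Slc11a2, Slc39a14, Slc40a1, Slc11a1, Lcn2, Ncoa4 and Ireb2. They were found by their symbols among the 78317 gene rows of the deposited table, and all 10 were present and passed the filter on low values in every comparison. The study asked how RNY1, a small noncoding Y RNA, shapes what airway fluid particles do to macrophages. Bone marrow-derived macrophages (BMDMs) from female wild-type C57BL/6J mice were treated on day 7 of culture, and RNA was sequenced from the 3′ end in 20 libraries. The groups were PBS, RNY1+/+ EVFx, RNY1-/- EVFx, RNY1+/+ ProteinFx and RNY1-/- ProteinFx, with 4 libraries each. The genotype is that of the ovalbumin-challenged mice, 7 to 16 weeks old, whose airway lavage was fractionated, so the macrophages of every group carried RNY1. The knockout is a CRISPR-made line. EVFx pooled size exclusion fractions 1 to 4, rich in vesicles, and was added at 35000000 particles per µL. ProteinFx pooled fractions 9 to 20, rich in soluble protein, and was added at 0.75 µg of protein per µL, so the 2 kinds of fraction were not dosed on a common scale. Fractions were kept for 5 days at 4 °C before use, and the length of treatment is not given in the sources used here.

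Ferritin is a hollow shell of heavy (Fth1) and light (Ftl1) chains in which cells store iron. Iron enters by transferrin receptor (Tfrc) or by metal transporters and leaves through ferroportin (Slc40a1), and macrophages that break down red cells pass much iron along this route. Iron regulatory proteins, of which Ireb2 encodes one member, bind hairpins called iron-responsive elements when iron is low: a hairpin before the coding sequence holds back translation, and hairpins after it protect the messenger RNA from decay.

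Because several of the 10 genes carry such hairpins, they are shown first. Transcripts of a GENCODE annotation of mouse build GRCm38 were searched on the transcript strand for 17 bases made of a bulged C and the 6-base loop CAGTGN held between arms of 5 paired bases, G-T pairs allowed. It occurred in 448 of 55450 genes (0.808%), and in 4 of the 10 genes here, Fth1, Ftl1, Slc40a1 and Tfrc. Each line gives 30 bases, with the loop CAGTGN in capitals.
Fth1, 5′ UTR, chr19:9982733-9982762, plus strand: tcctgcttcaaCAGTGCttgaacggaaccc
Ftl1, 5′ UTR, chr7:45459777-45459806, minus strand: tcttgcttcaaCAGTGTttgaacggaacag
Slc40a1, 5′ UTR, chr1:45925463-45925492, minus strand: aacttcagctaCAGTGTtagctaagtttgg
Tfrc, 3′ UTR, hairpin 1, chr16:32631220-32631249, plus strand: attatcggaagCAGTGCcttccataattat
Tfrc, 3′ UTR, hairpin 2, chr16:32631599-32631628, plus strand: attatcgggagCAGTGTcttccataatgca
Tfrc, 3′ UTR, hairpin 3, chr16:32631664-32631693, plus strand: tatatcggagaCAGTGAtctccatatgtta
Tfrc, 3′ UTR, hairpin 4, chr16:32631711-32631740, plus strand: attatcgggaaCAGTGTttcccataatttt
The hairpins of Fth1, Ftl1 and Slc40a1 lie ahead of the coding sequence and the 4 of Tfrc behind it. A match describes the sequence and was not tested for binding. For the other 6 genes these letters were not found in the annotated transcripts. Slc11a2 is known to have an isoform with an iron-responsive element in its 3′ UTR. A search for unbroken arms can miss an element whose arms pair imperfectly, in any of the 10 genes, so Tfrc may hold more than the 4 shown.

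Libraries held 2510005 to 8277366 counts. Levels are given in CPM (count over the total count of the library, scaled to 1000000) as deposited, for replicates 1 to 4 in turn. Fold changes are on the log2 scale from edgeR after trimmed mean of M-values (TMM) scaling, so they differ somewhat from ratios of CPM. A gene was called where its adjusted p was under 0.05 and its log2 fold change beyond 1 in size, and "rose" and "fell" are kept for called genes. The labels do not say whether libraries came from separate cultures, so p-values measure the spread between these libraries, which may be technical. The 4 comparisons with PBS share the same PBS libraries, and comparisons between fractions or genotypes reuse the same treated libraries. The 6 macrophage markers together were at 8334 to 12711 CPM throughout, though single markers differed between groups. Lyz2 was at 6330 to 9469 CPM with PBS and 4131 to 5945 CPM in the treated groups. Adgre1 was at 763 to 1013 CPM with PBS and 2114 to 3329 CPM in the treated groups. Itgam and Mertk were as low as 74.2 and 42.4 CPM, both with RNY1+/+ EVFx.

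Against PBS, 6 of the 10 genes were called with RNY1+/+ EVFx, 5 higher and 1 lower, where 16.4% of all genes tested were called, 8.24% higher and 8.2% lower. With RNY1-/- EVFx 6 were called, 4 higher and 2 lower, against 22.5% of all genes, 9.03% higher and 13.5% lower. Ftl1 is among the 2 lower, and its level in this group, lower than with RNY1+/+ EVFx, was known when the set was chosen. With RNY1+/+ ProteinFx 3 were called, 1 higher and 2 lower, against 21.3%, 8.96% higher and 12.4% lower. With RNY1-/- ProteinFx 2 were called, both lower, against 14.3%, 6.31% higher and 7.99% lower. The shares of the 2 ProteinFx comparisons were thus near those of all genes. By edgeR's adjusted p alone 8, 7, 8 and 5 genes passed in the same order, where 44.5%, 58.3%, 55.2% and 35.7% of all genes did. The median log2 fold change of the 10 genes was 0.66, 0.60, 0.39 and 0.18 in the same order, beside medians of -0.03 over all genes in each. When libraries were scaled by total counts alone, RNY1-/- EVFx had 1 higher and 2 lower calls among the 10 genes. Of all 10727 genes tested, 698 were then called higher and 2138 lower. RNY1+/+ ProteinFx had 0 higher and 2 lower, where 774 of all 10832 genes were called higher and 1847 lower.

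**Figure D1:**
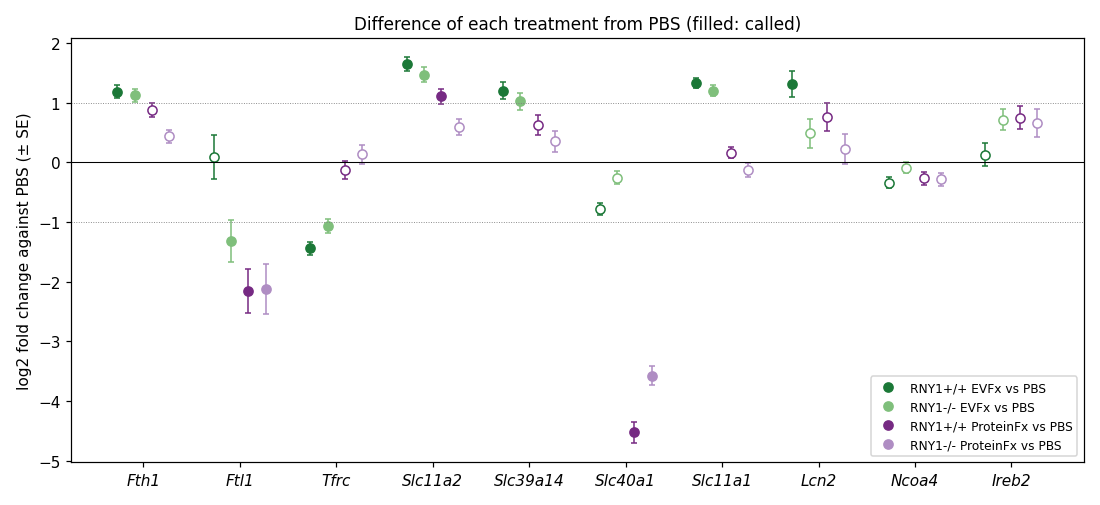
Log2 fold change against PBS (vertical axis) of the 10 iron-handling genes (horizontal axis) for the 4 treatments, with bars of 1 SE. Filled points were called and open points were not, and dotted lines mark log2 fold changes of 1 and -1. Slc40a1 lies far below the rest with both ProteinFx, at -4.52 and -3.57, while Fth1 lies above 0 in all 4 treatments.

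Ferritin heavy chain, the subunit that oxidises iron for storage, was higher than PBS in all 4 treated groups. Fth1 (ENSMUSG00000024661) was at 34565, 36437, 34180.4 and 37058 CPM with PBS. It was at 64499, 70457, 76304 and 73886 CPM with RNY1+/+ EVFx and at 59396, 66122, 68612 and 67786 CPM with RNY1-/- EVFx. All 8 EVFx libraries lay above every PBS library, and the 2 EVFx groups overlapped. Fth1 rose 2.27-fold with RNY1+/+ EVFx (log2 fold change 1.18, SE 0.11, edgeR adjusted p = 6.3e-06) and 2.18-fold with RNY1-/- EVFx (log2 fold change 1.12, SE 0.11, edgeR adjusted p = 6.66e-06). In bulk RNA, a change in the number of cells that express a gene and a change in RNA per cell cannot be told apart.

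With ProteinFx the heavy chain differed less from PBS. Fth1 was at 53759.5, 53862, 66321 and 58509 CPM with RNY1+/+ ProteinFx and at 43545, 51293, 43599.6 and 45197 CPM with RNY1-/- ProteinFx. Both groups lay above all PBS libraries and apart from each other, with knockout the lower. The differences from PBS were short of the fold threshold at 0.88 (SE 0.11) and 0.44 (SE 0.11) on the log2 scale (edgeR adjusted p = 7.48e-05 and 0.0127). Fth1 made up 3.42% to 7.63% of all counts in a library. With total counts in place of TMM, its difference with RNY1-/- EVFx was 0.88, under the fold threshold.

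Ferritin light chain, which helps iron crystallise in the shell, went the other way from the heavy chain in 3 of the 4 treatments. Ftl1 (ENSMUSG00000050708) was at 2898, 3265, 717 and 1842 CPM with PBS, where replicate 3 stood far below the others. It was at 1878, 1798, 1733 and 2803 CPM with RNY1+/+ EVFx and at 752, 887, 689 and 649 CPM with RNY1-/- EVFx. These 2 groups did not overlap, the RNY1+/+ EVFx libraries lay within the PBS range, and PBS replicate 3 lay within the RNY1-/- EVFx range. With RNY1+/+ ProteinFx Ftl1 was at 424, 332, 552 and 438 CPM and with RNY1-/- ProteinFx at 604, 652, 337 and 340.5 CPM, below every PBS library.

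Ftl1 fell 4.44-fold with RNY1+/+ ProteinFx (log2 fold change -2.15, SE 0.37, edgeR adjusted p = 0.000593) and 4.35-fold with RNY1-/- ProteinFx (log2 fold change -2.12, SE 0.41, edgeR adjusted p = 0.00356). It fell 2.48-fold with RNY1-/- EVFx (log2 fold change -1.31, SE 0.35, edgeR adjusted p = 0.0082), a call that was lost when length and GC trends were removed (log2 fold change -0.59). With RNY1+/+ EVFx its difference from PBS was 0.09 (SE 0.37) on the log2 scale, with an edgeR adjusted p = 0.863. The sign of that value turned without PBS replicate 3 (-0.20), without RNY1+/+ EVFx replicate 4 (-0.09) and with total counts (-0.09). The lower Ftl1 level with RNY1-/- than with RNY1+/+ EVFx was known when the set was chosen. The p-values of Ftl1 in comparisons that use EVFx libraries are therefore not independent of that choice. The ratio of Fth1 to Ftl1 in CPM ranged from 11.2 to 47.7 with PBS, 26.4 to 44.0 with RNY1+/+ EVFx and 74.6 to 104 with RNY1-/- EVFx. It ranged from 120.2 to 162 with RNY1+/+ ProteinFx and from 72.1 to 133 with RNY1-/- ProteinFx.

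**Figure D2:**
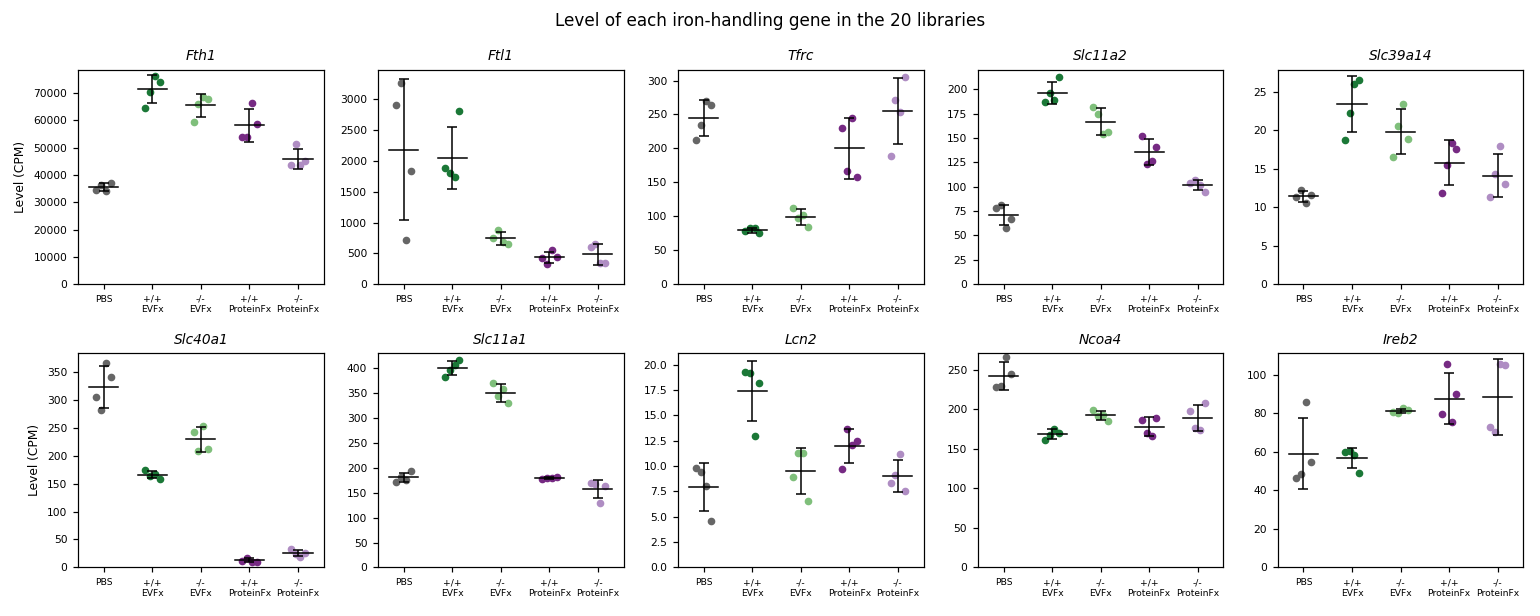
Level in CPM (vertical axis, from 0) of each of the 10 genes in the 20 libraries, by group (horizontal axis); points are libraries, the wide line is the group mean and the bar 1 SD (n = 4). Ftl1 with PBS spans 717 to 3265 CPM, while Slc40a1 with ProteinFx stays at or below 32.9 CPM against at least 281 CPM with PBS.

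Within every group but RNY1+/+ ProteinFx, Ftl1 moved with the GC content of the libraries, taken as the mean GC of the counted transcripts. PBS replicate 3 had a mean GC of 45.9% and 717 CPM of Ftl1, while the other PBS libraries had 46.8% to 47.6% and 1842 to 3265 CPM. RNY1-/- ProteinFx split in the same way, with replicates 1 and 2 at 46.5% and 46.6% and 604 and 652 CPM, and replicates 3 and 4 at 45.5% and 45.7% and 337 and 340.5 CPM. Within RNY1-/- EVFx, Ftl1 ran from 649 CPM at 45.6% (replicate 4) to 887 CPM at 46.0% (replicate 2). Within RNY1+/+ EVFx it ran from 1733 CPM at 46.6% (replicate 3) to 2803 CPM at 47.2% (replicate 4). RNY1+/+ ProteinFx did not keep this order, with replicate 4 at 45.78% and 438 CPM and replicate 2 at 45.81% and 332 CPM. Libraries of different groups with like GC could still differ in Ftl1. RNY1+/+ EVFx replicate 3 was at 46.6% and 1733 CPM, beside 604 and 652 CPM in RNY1-/- ProteinFx replicates 1 and 2. The longest Ftl1 transcript has a GC content of 58.1%. With length and GC trends removed from each library, the log2 differences from PBS were 0.36 with RNY1+/+ EVFx, -1.37 with RNY1+/+ ProteinFx and -1.41 with RNY1-/- ProteinFx. The last 2 were still called. Without RNY1-/- ProteinFx replicates 3 and 4, a choice made after seeing the data, Ftl1 was at -1.77 against PBS, with an edgeR adjusted p = 0.0597. The part that GC content played in these differences was otherwise not tested.

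**Figure D3:**
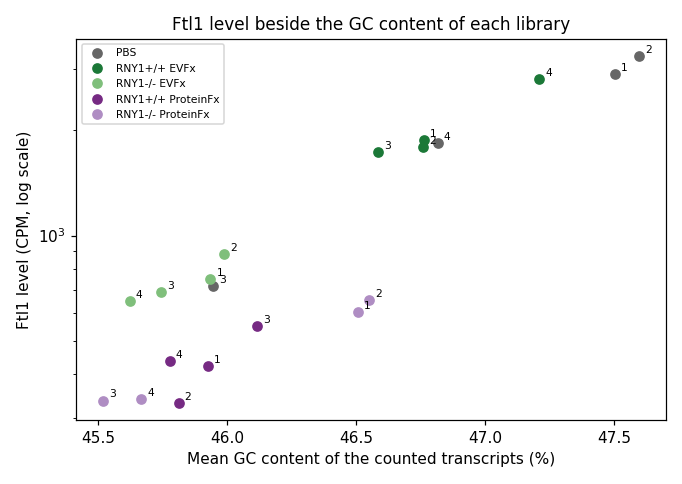
Ftl1 level (CPM, vertical log axis) against the mean GC content of the counted transcripts (percent, horizontal axis) in the 20 libraries, with replicate numbers beside the points and groups by colour. PBS replicate 3, at 45.9% and 717 CPM, lies among the RNY1-/- EVFx libraries and away from the other PBS libraries.

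Reads of ferritin are shared among many copies in the genome, and reads that map to several places were divided into fractions when counted. Ftl1 counts were fractional in 20 of 20 libraries and Fth1 counts in 19. Besides Ftl1 and Fth1, 16 ferritin-related rows were listed (names that start with Ftl or Fth, and Gm15590), of which 9 had no count in any library. Ftl1 held 96.2% to 97.8% of the CPM of all light-chain rows and Fth1 93.8% to 99.2% of the heavy-chain rows. The row Gm56125, described below, was not among the light-chain rows. Summing the related rows into their parents changed no call of either gene. As Ftl1 and Fth1 already held most of these counts, the sum could hardly do otherwise and is no check on the calls. The light-chain rows Ftl1-ps1, Ftl2-ps and Gm15590 had log2 differences from PBS of -2.70, -2.58 and -2.59 with RNY1+/+ ProteinFx, but they share reads with Ftl1 and are not separate observations.

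The pseudogene row Fth1-ps (ENSMUSG00000084289) did not follow Fth1 among PBS libraries. It was at 462, 517, 275 and 2468 CPM with PBS, so replicate 4 stood alone while its Fth1 was close to that of the others. In the treated groups it ranged from 1333 to 4821 CPM. The differences from PBS were 2.33, 1.66, 1.49 and 1.04 with RNY1+/+ EVFx, RNY1-/- EVFx, RNY1+/+ ProteinFx and RNY1-/- ProteinFx, and the first 3 were called. How many of these reads come from Fth1 cannot be told apart in the counts.

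A further row, Gm56125 (ENSMUSG00002076377), listed as a microRNA gene, carried 72.7% to 83.9% as many counts as Ftl1 in each library. By the root mean square difference of centred log2 CPM over the 20 libraries it was the nearest to Ftl1 of 7553 genes compared, at 0.06 where Ftl1 itself varied by 1.08. The next were Ppt2 at 0.32 and Gabarapl1 at 0.34. Whether reads of Ftl1 were shared with the Gm56125 row was not tested, and Ftl1 levels would be higher by that amount if they were. Adding its counts to Ftl1, chosen after seeing the data, gave log2 differences from PBS of 0.12, -1.25, -2.11 and -2.06 with RNY1+/+ EVFx, RNY1-/- EVFx, RNY1+/+ ProteinFx and RNY1-/- ProteinFx. Because Gm56125 followed Ftl1 so closely, this addition could hardly change a fold change and is no check on the calls. For Fth1 the nearest genes were Ube2f at 0.12, Msmo1 at 0.13 and Abracl at 0.14, where Fth1 varied by 0.44. These likenesses are descriptions over libraries that share treatments and depth.

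Among genes of iron uptake, Tfrc and Slc11a2 moved in opposite directions with EVFx. Tfrc (ENSMUSG00000022797), the receptor that takes up transferrin-bound iron, was at 212, 234, 269 and 265 CPM with PBS. It was at 77.7, 83.5, 82.3 and 75.6 CPM with RNY1+/+ EVFx and at 112, 97.0, 102 and 84.9 CPM with RNY1-/- EVFx, all below every PBS library. With RNY1+/+ ProteinFx it was at 230.5, 166, 245 and 158 CPM and with RNY1-/- ProteinFx at 189.6, 272, 254 and 305 CPM, and both groups overlapped PBS. Tfrc fell 2.72-fold with RNY1+/+ EVFx (log2 fold change -1.44, SE 0.11, edgeR adjusted p = 1.29e-06) and 2.096-fold with RNY1-/- EVFx (log2 fold change -1.07, SE 0.12, edgeR adjusted p = 1.99e-05). With ProteinFx its log2 differences were -0.13 (SE 0.15) and 0.13 (SE 0.16), neither past the adjusted p threshold (edgeR adjusted p = 0.502 and 0.535). They were -0.63 and -0.33 with length and GC trends removed, and the first then passed it (edgeR adjusted p = 0.00633).

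Slc11a2 (ENSMUSG00000023030) encodes the transporter that carries ferrous iron out of the endosome after transferrin is taken up. It was at 77.7, 81.4, 57.9 and 66.9 CPM with PBS, at 187, 196, 189 and 212 CPM with RNY1+/+ EVFx and at 182, 175, 154 and 156 CPM with RNY1-/- EVFx. With RNY1+/+ ProteinFx it was at 152, 123, 127 and 140.2 CPM and with RNY1-/- ProteinFx at 104, 107, 102 and 94.9 CPM. The 5 groups followed each other without overlap, from RNY1+/+ EVFx down to PBS. Slc11a2 rose 3.12-fold with RNY1+/+ EVFx (log2 fold change 1.64, SE 0.12, edgeR adjusted p = 1.02e-06), 2.77-fold with RNY1-/- EVFx (log2 fold change 1.47, SE 0.12, edgeR adjusted p = 2.8e-06) and 2.15-fold with RNY1+/+ ProteinFx (log2 fold change 1.103, SE 0.13, edgeR adjusted p = 3.92e-05). The last fell short of the fold threshold with total counts, at 0.93. With RNY1-/- ProteinFx the log2 difference was 0.59 (SE 0.13) (edgeR adjusted p = 0.00646).

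Slc39a14 (ENSMUSG00000022094), a zinc transporter family member that takes up iron not bound to transferrin, was lowly expressed. It was at 11.3, 12.2, 10.5 and 11.7 CPM with PBS, at 18.7, 22.3, 26.0 and 26.6 CPM with RNY1+/+ EVFx and at 16.5, 20.6, 23.4 and 18.8 CPM with RNY1-/- EVFx. Every EVFx library lay above every PBS library. Slc39a14 rose 2.30-fold with RNY1+/+ EVFx (log2 fold change 1.20, SE 0.14, edgeR adjusted p = 5.13e-05) and 2.03-fold with RNY1-/- EVFx (log2 fold change 1.02, SE 0.14, edgeR adjusted p = 0.000121). The latter value lay at the threshold and was 0.99 without PBS replicate 3, 0.95 without RNY1-/- EVFx replicate 3 and 0.78 with total counts. With ProteinFx it ranged from 11.3 to 18.3 CPM, and both groups overlapped PBS.

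Ferroportin, the iron exporter, showed the largest differences from PBS of the 10 genes. Slc40a1 (ENSMUSG00000025993) was at 305, 281, 366 and 341 CPM with PBS. It was at 12.3, 17.7, 10.3 and 10.1 CPM with RNY1+/+ ProteinFx and at 32.9, 24.9, 19.1 and 25.9 CPM with RNY1-/- ProteinFx. All 8 ProteinFx libraries lay far below PBS, and the 2 genotypes did not overlap, with knockout the higher. Slc40a1 fell 23.0-fold with RNY1+/+ ProteinFx (log2 fold change -4.52, SE 0.18, edgeR adjusted p = 4.1e-09) and 11.9-fold with RNY1-/- ProteinFx (log2 fold change -3.57, SE 0.16, edgeR adjusted p = 1.44e-07).

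With EVFx ferroportin differed from PBS by less. Slc40a1 was at 174, 164, 168 and 158 CPM with RNY1+/+ EVFx and at 242, 209, 253 and 212 CPM with RNY1-/- EVFx, and neither group overlapped PBS. The log2 differences were -0.78 (SE 0.11) with RNY1+/+ EVFx (edgeR adjusted p = 0.000136) and -0.26 (SE 0.11) with RNY1-/- EVFx (edgeR adjusted p = 0.0746), both short of the fold threshold. The RNY1-/- EVFx value was -0.50 with total counts and -0.70 with length and GC trends removed, and it then passed the adjusted p threshold (edgeR adjusted p = 0.00323 and 3.24e-05).

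Slc11a1 and Lcn2 limit the iron that microbes can reach. Slc11a1 (ENSMUSG00000026177), which pumps metal ions out of the phagosome, was at 172, 181, 176 and 194 CPM with PBS. It was at 383, 397, 406 and 417 CPM with RNY1+/+ EVFx and at 371, 345, 359 and 329.8 CPM with RNY1-/- EVFx, apart from PBS and from each other. With RNY1+/+ ProteinFx it was at 178, 180.1, 179 and 181 CPM, within the PBS range, and with RNY1-/- ProteinFx at 169, 168, 129 and 163 CPM, just below it. Slc11a1 rose 2.51-fold with RNY1+/+ EVFx (log2 fold change 1.32, SE 0.09, edgeR adjusted p = 5.83e-07) and 2.29-fold with RNY1-/- EVFx (log2 fold change 1.20, SE 0.09, edgeR adjusted p = 1.41e-06). The second value was 0.96 with total counts, under the fold threshold. Its differences with ProteinFx were 0.16 (SE 0.09) and -0.13 (SE 0.11) on the log2 scale (edgeR adjusted p = 0.163 and 0.374). They were 0.48 (edgeR adjusted p = 0.00548) and 0.18 with length and GC trends removed, and with total counts the first was -0.0098.

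Lcn2 (ENSMUSG00000026822), a secreted protein that traps bacterial siderophores, rested on 26 to 153 counts in a library. It was at 9.84, 9.42, 8.01 and 4.63 CPM with PBS, at 19.3, 19.1, 13.01 and 18.2 CPM with RNY1+/+ EVFx and at 8.93, 11.3, 11.3 and 6.56 CPM with RNY1-/- EVFx. With RNY1+/+ ProteinFx it was at 9.76, 13.7, 12.1 and 12.5 CPM and with RNY1-/- ProteinFx at 8.31, 9.09, 11.2 and 7.52 CPM. RNY1+/+ EVFx was the only group that did not overlap PBS. Lcn2 rose 2.49-fold there (log2 fold change 1.31, SE 0.22, edgeR adjusted p = 0.000587) and differed by 0.49 (SE 0.24) with RNY1-/- EVFx, 0.76 (SE 0.23) with RNY1+/+ ProteinFx and 0.23 (SE 0.25) with RNY1-/- ProteinFx on the log2 scale, none of them called. With length and GC trends removed, the RNY1+/+ ProteinFx value was 1.19 and was called, and the RNY1-/- EVFx value was 0.87 (edgeR adjusted p = 0.00481).

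Lcn2 is also abundant in neutrophils, so their markers are given beside it. The 9 neutrophil markers together were at 287 to 336 CPM with PBS, 144 to 210.4 CPM with RNY1+/+ EVFx and 185 to 266 CPM with RNY1-/- EVFx. They were at 199 to 325 CPM with RNY1+/+ ProteinFx and 241 to 356 CPM with RNY1-/- ProteinFx. Most of this sum was S100a8 and S100a9, at 91.0 to 209 and 47.5 to 141 CPM over the 20 libraries. Ngp, Camp and Ltf reached 13.4, 6.35 and 5.56 CPM, all in PBS libraries, Retnlg reached 1.82 CPM, and Ly6g, Mpo and Elane did not pass 0.615 CPM in any library. The sum with RNY1+/+ EVFx lay below PBS and overlapped RNY1-/- EVFx and RNY1+/+ ProteinFx. The part of neutrophil RNA in the Lcn2 values was not tested.

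Ncoa4 and Ireb2, which act on ferritin protein and on the hairpins shown above, were not called in any comparison. Ncoa4 (ENSMUSG00000056234), the receptor that delivers ferritin for degradation, was at 228, 229.9, 266 and 244 CPM with PBS. It was at 161, 167, 176 and 170.5 CPM with RNY1+/+ EVFx and at 199, 192, 193 and 185 CPM with RNY1-/- EVFx. With RNY1+/+ ProteinFx it was at 186, 169.9, 167 and 189 CPM and with RNY1-/- ProteinFx at 198, 176, 174 and 208 CPM. Every treated library was below every PBS library in CPM, while after TMM scaling the log2 differences were -0.35, -0.09, -0.27 and -0.29 (edgeR adjusted p = 0.0103, 0.409, 0.0423 and 0.0688). The last 3 were -0.37, -0.58 and -0.56 with length and GC trends removed, all past the adjusted p threshold, and with total counts the 4 values were -0.52, -0.33, -0.44 and -0.36.

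Ireb2 (ENSMUSG00000032293), which encodes iron regulatory protein 2, was at 46.3, 48.4, 86.0 and 55.0 CPM with PBS, where replicate 3 stood above the others. It was at 59.7, 60.2, 58.3 and 49.2 CPM with RNY1+/+ EVFx and at 80.8, 80.3, 82.5 and 81.9 CPM with RNY1-/- EVFx. With RNY1+/+ ProteinFx it was at 79.4, 105, 75.6 and 89.9 CPM and with RNY1-/- ProteinFx at 72.7, 70.2, 106 and 105 CPM. All 4 treated groups overlapped PBS, and 3 of them reached it only at replicate 3. The log2 differences from PBS were 0.13, 0.71, 0.75 and 0.66 (edgeR adjusted p = 0.607, 0.00498, 0.00657 and 0.0468). The last 3 were 0.29, 0.27 and 0.22 with length and GC trends removed, the last with an edgeR adjusted p = 0.0961. For RNY1-/- ProteinFx the edgeR adjusted p was 0.106 to 0.137 without PBS replicate 1, 2 or 4 or its own replicate 3 or 4. Without its replicates 3 and 4 together, a choice made after seeing the data, the value was 0.31 (edgeR adjusted p = 0.414). Without PBS replicate 3 the RNY1+/+ EVFx value was 0.36 (edgeR adjusted p = 0.0121), and with total counts it was -0.05. The GC content of Ireb2, 39.0%, is at the other end from that of Ftl1.

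The 2 kinds of fraction were compared directly within each genotype, at doses that differ in kind. Between RNY1+/+ ProteinFx and RNY1+/+ EVFx 4 of the 10 genes were called, 3 lower and 1 higher with ProteinFx, where 13.5% of all genes were, 6.82% lower and 6.71% higher. By edgeR's adjusted p alone 9 passed, against 63.3% of all genes. Slc40a1 (log2 fold change -3.74, SE 0.13, edgeR adjusted p = 2.8e-11), Ftl1 (log2 fold change -2.23, SE 0.17, edgeR adjusted p = 4.46e-08) and Slc11a1 (log2 fold change -1.16, SE 0.07, edgeR adjusted p = 9.98e-09) were lower with ProteinFx, and Tfrc was higher (log2 fold change 1.32, SE 0.13, edgeR adjusted p = 5.37e-07). None of these 4 overlapped between the groups, but the share of all genes without overlap is not given here, so this does not set them apart. The EVFx levels of Ftl1 entered the choice of the set, so its p-value here is not independent of that choice. With length and GC trends removed, Tfrc and Slc11a1 came to 0.88 and -0.75 and only Slc40a1 and Ftl1 were called.

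Between RNY1-/- ProteinFx and RNY1-/- EVFx 3 genes were called, 2 lower and 1 higher with ProteinFx, against 8.97% of all genes, 4.15% lower and 4.82% higher. By edgeR's adjusted p alone 7 passed, against 29.2%. Slc40a1 (log2 fold change -3.31, SE 0.14, edgeR adjusted p = 1.84e-08) and Slc11a1 (log2 fold change -1.33, SE 0.10, edgeR adjusted p = 1.17e-06) were lower with ProteinFx, and Tfrc was higher (log2 fold change 1.20, SE 0.15, edgeR adjusted p = 7.57e-05). Ftl1 differed by -0.81 (SE 0.19) (edgeR adjusted p = 0.00688), short of the fold threshold, and its groups overlapped. The value was -1.25 and was called without RNY1-/- ProteinFx replicates 1 and 2, and was -0.45 without replicates 3 and 4, both choices made after seeing the data. In a fit of all 20 libraries its edgeR adjusted p was 0.0592. Fth1 and Slc11a2 were also lower with ProteinFx at -0.69 and -0.88, without reaching the fold threshold.

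Between the genotypes of ProteinFx no gene of the 10 was called, where 1.82% of all genes were, and DESeq2 also called 0. By edgeR's adjusted p alone 2 of the 10 differed, against 5.57% of all genes. Slc40a1 was 1.96-fold higher with RNY1-/- ProteinFx (log2 fold change 0.97, SE 0.20, edgeR adjusted p = 0.0116). The 4 knockout libraries, at 19.1 to 32.9 CPM, lay above the 4 wild-type libraries, at 10.1 to 17.7 CPM. The value passed the fold threshold without RNY1+/+ ProteinFx replicate 2 (1.16), without RNY1-/- ProteinFx replicate 2 (1.01) or 3 (1.06), with total counts (1.06) and with length and GC trends removed (1.05). It was lowest without RNY1-/- ProteinFx replicate 1 (0.85), and without RNY1+/+ ProteinFx replicate 4 (0.88) it lost the adjusted p threshold (edgeR adjusted p = 0.0619). Slc11a2 was 1.41-fold lower with RNY1-/- ProteinFx (log2 fold change -0.50, SE 0.10, edgeR adjusted p = 0.0137), again with no overlap. Its edgeR adjusted p was 0.057 and 0.0585 without RNY1+/+ ProteinFx replicates 1 and 4 in turn. Fth1 was lower by -0.43 (SE 0.12) on the log2 scale, with no overlap but an edgeR adjusted p = 0.0585.

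The difference between the genotypes of EVFx is given as a description without a test, because the set was chosen by a reading of earlier results that held the lower Ftl1 level of this comparison. Whether values of the other 9 genes were also used is not recorded in the sources used here. Ftl1 was the only one of the 10 past a 2-fold difference, where 2.45% of all genes were (1.99% on the lower side), at a log2 difference of -1.40 (SE 0.14). The next in size, all short of 2-fold, were Lcn2 at -0.83, Ireb2 at 0.59 and Slc40a1 at 0.53. Fth1 differed by -0.05 (SE 0.10). Mean GC content separated these 2 groups without overlap, at 46.6% to 47.2% with RNY1+/+ and 45.6% to 46.0% with RNY1-/- EVFx. With length and GC trends removed, Ftl1 was at -0.93, Lcn2 at -0.51, Slc40a1 at 0.23 and Ireb2 at 0.14. Over all genes, 48 were higher and 205 lower past 2-fold before this removal, and 53 were higher and 45 lower after it.

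A wider list held 53 further genes of iron and heme handling. Of these genes 38 were tested for RNY1+/+ EVFx against PBS, and 7 rose and 6 fell (34.2% called, against 16.4% of all genes). With RNY1-/- EVFx 7 rose and 8 fell of 38 (39.5% against 22.5%). With RNY1+/+ ProteinFx 3 rose and 5 fell of 39 (20.5% against 21.3%), and with RNY1-/- ProteinFx 3 rose and 4 fell of 39 (17.9% against 14.3%). These shares describe the list and were not tested against other genes. The median log2 fold change of the list was 0.10, 0.10, -0.10 and 0.02 in these comparisons. The median over all genes tested was -0.03 in each. ProteinFx against EVFx gave 3 higher and 5 lower of 36 for RNY1+/+ (22.2% against 13.5%) and 4 higher and 5 lower of 37 for RNY1-/- (24.3% against 8.97%). Between the genotypes of ProteinFx 2 were lower of 37 (5.41% against 1.82%).

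Heme oxygenase, which breaks down heme and frees its iron, was among the most changed genes of the list with EVFx. Hmox1 was at 1038 to 1411 CPM with PBS, 7894 to 9591 CPM with RNY1+/+ EVFx and 6530.0 to 7815 CPM with RNY1-/- EVFx. It was at 837 to 1154 CPM with RNY1+/+ ProteinFx and 614 to 737 CPM with RNY1-/- ProteinFx. Hmox1 rose with RNY1+/+ EVFx (log2 fold change 3.08, SE 0.14, edgeR adjusted p = 3.73e-08) and RNY1-/- EVFx (log2 fold change 2.85, SE 0.14, edgeR adjusted p = 5.96e-08), and was lower with ProteinFx than with EVFx of either genotype (-3.19 and -3.55 on the log2 scale, both called). Spic, a transcription factor of iron-recycling macrophages, followed a like course, at 4.91 ± 1.41 CPM with PBS and 80.1 ± 5.20 and 76.9 ± 6.76 CPM with RNY1+/+ and RNY1-/- EVFx (SD, n = 4). With ProteinFx Spic was at 5.77 ± 1.72 CPM for RNY1+/+ and 2.93 ± 0.785 CPM for RNY1-/-. Its log2 fold changes against PBS were 4.19 and 4.20 with EVFx, both called.

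Ceruloplasmin, the copper enzyme that oxidises exported iron, rose with all 4 treatments. Cp was at 5.97 ± 0.782 CPM with PBS, 119 ± 24.3 and 97.7 ± 12.9 CPM with RNY1+/+ and RNY1-/- EVFx, and 154 ± 29.2 and 67.9 ± 12.6 CPM with RNY1+/+ and RNY1-/- ProteinFx (SD, n = 4). Its log2 fold changes were 4.50, 4.28, 4.87 and 3.58. Between the genotypes of ProteinFx Cp was the largest difference of the list that met the rule for naming, lower with RNY1-/- (log2 fold change -1.27, SE 0.16, edgeR adjusted p = 0.000512), and its groups did not overlap.

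Slc48a1, which moves heme out of the lysosome, and Blvrb, a biliverdin reductase, fell with ProteinFx. Slc48a1 was at 110.4 ± 35.7 CPM with PBS, 39.3 ± 6.70 CPM with RNY1+/+ ProteinFx (log2 fold change -1.32, SE 0.23, edgeR adjusted p = 0.000703) and 37.0 ± 9.97 CPM with RNY1-/- ProteinFx (log2 fold change -1.503, SE 0.26, edgeR adjusted p = 0.00181). Blvrb fell with RNY1-/- ProteinFx from 336 ± 50.2 to 122 ± 19.5 CPM (log2 fold change -1.40, SE 0.15, edgeR adjusted p = 7.72e-05). It also fell with RNY1+/+ ProteinFx (-1.09). With RNY1+/+ EVFx both rose, Slc48a1 by 1.32 and Blvrb by 1.32 on the log2 scale. Among PBS libraries both were lowest in replicate 3, at 61.3 and 261 CPM. Slc48a1 with RNY1-/- ProteinFx was at 42.9, 47.6, 25.9 and 31.6 CPM for replicates 1 to 4.

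Lrp1 and Steap3 fell with all 4 treatments. Lrp1, a receptor that also takes up heme bound to hemopexin, was at 279 to 502 CPM with PBS, 113 to 151 and 67.6 to 90.8 CPM with RNY1+/+ and RNY1-/- EVFx, and 114 to 128 and 115 to 169 CPM with RNY1+/+ and RNY1-/- ProteinFx. Its log2 fold changes were -1.47, -1.99, -1.55 and -1.41. Steap3, an endosomal iron reductase, was at 28.9 ± 9.004 CPM with PBS and between 7.07 ± 1.01 CPM with RNY1-/- EVFx and 10.9 ± 3.71 CPM with RNY1-/- ProteinFx in the treated groups (SD, n = 4). Its log2 fold changes in the same order were -1.38, -1.79, -1.35 and -1.30, all called. Among PBS libraries Lrp1 and Steap3 were lowest in replicate 3 (279 and 17.8 CPM), which had the lowest mean GC of that group. With RNY1-/- ProteinFx, Lrp1 was at 169, 156, 124 and 115 CPM for replicates 1 to 4. Values with length and GC trends removed are not given for the wider list. The part of GC content in its differences was not tested.

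Hfe and Epas1 were lowest with EVFx. Hfe, which binds transferrin receptor, was at 6.87 ± 0.749 CPM with RNY1+/+ EVFx and 8.06 ± 2.26 CPM with RNY1-/- EVFx. With the matching ProteinFx it was at 38.7 ± 4.71 and 72.3 ± 3.41 CPM (2.48 and 2.97 against EVFx on the log2 scale, both called). Its PBS level was 28.9 ± 3.06 CPM, with libraries at 26.3 to 33.3 CPM. RNY1+/+ ProteinFx libraries were at 34.5 to 44.2 CPM and RNY1-/- ProteinFx libraries at 68.1 to 75.2 CPM. Epas1, a hypoxia-inducible factor subunit, fell with EVFx from 32.2 ± 3.66 CPM to 2.94 ± 0.524 CPM with RNY1+/+ (-3.28) and 4.32 ± 1.42 CPM with RNY1-/- (-2.61). The 6 markers of the red cell lineage together reached at most 0.42 CPM in any library.

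**Figure D4:**
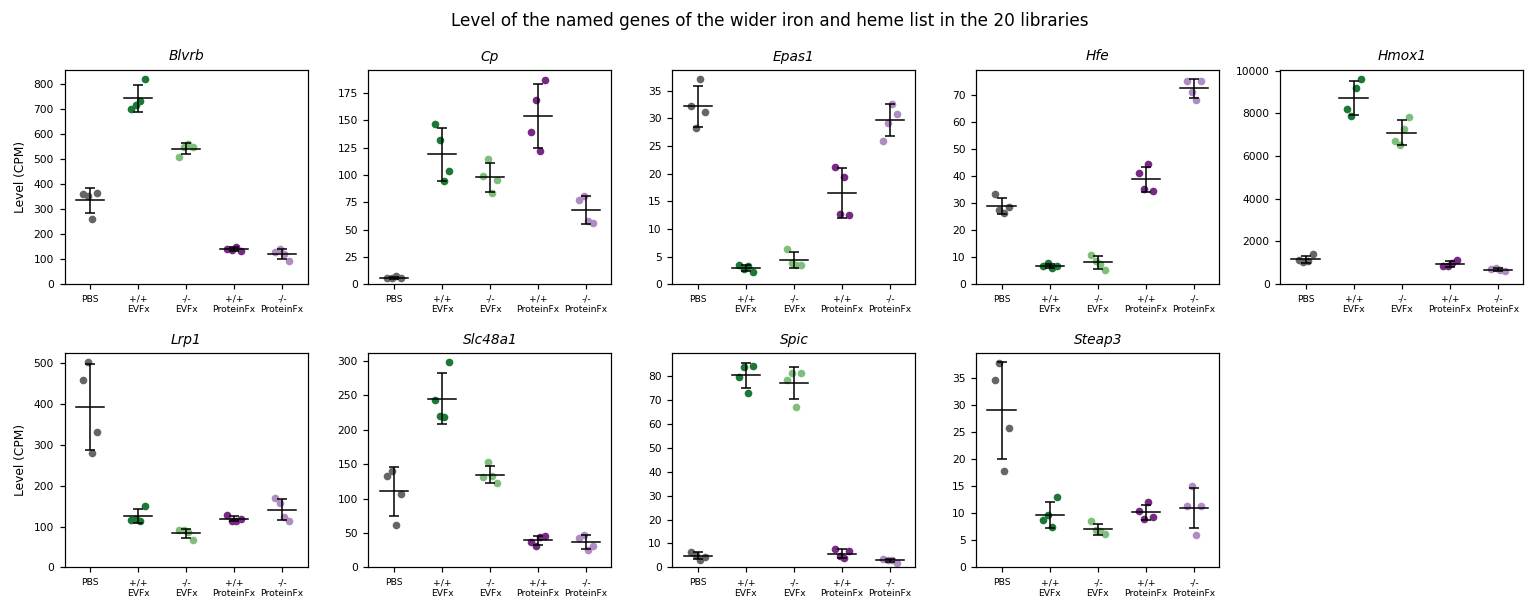
Level in CPM (vertical axis, from 0) of the 9 named genes of the wider iron and heme list in the 20 libraries, by group (horizontal axis); points are libraries, the wide line is the group mean and the bar 1 SD (n = 4). Hmox1 and Spic stand high only in the EVFx groups, while Cp is above its PBS mean of 5.97 CPM in all 4 treated groups.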

How the data were processed

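RNA of 20 libraries of macrophages was sequenced from the 3′ end with molecular identifiers. Per the study's methods and the submitters' processing notes, reads were filtered with fastp 0.24.0, aligned with STAR 2.7.11 (notes: build GRCm39), stripped of duplicates with UMIcollapse 1.1.0 and counted per strand on exons and 3′ UTRs with featureCounts (Subread 2.1.1), multi-mapping reads being shared as fractions. The annotation release is not given in the sources used here. The authors deposited expected counts per gene, not normalized, and CPM, which the authors computed from each library's total counts. Of 78409 rows, 92 spike-in rows (at most 0.00305% of counts) were left out.

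Rounded counts were compared by the quasi-likelihood test of edgeR 4.0.16 (TMM scaling, default filterByExpr, mean of 3 CPM or more) on the 8 libraries of each pair of groups, with Benjamini-Hochberg adjustment over all genes tested. A call needed an adjusted p under 0.05 and a log2 fold change beyond 1 in either direction. Total counts ranged from 2510005 to 8277366 (median 5456425), and no 2 replicates agreed within sampling noise. On simulated counts for RNY1+/+ EVFx and RNY1+/+ ProteinFx against PBS, edgeR recovered 200 of 200 changed genes with 0 false calls. The simulation set changes past the fold threshold in genes above 10 CPM, with the same spread for every gene. It therefore checks the working of the code and does not measure false calls in these libraries. Alternatives were DESeq2 1.42.0, total counts, other filters and rounding, all libraries in 1 fit, a replicate block, length and GC trends removed by splines (properties known for 96.8% to 97.1% of genes), summed ferritin rows and each library left out. The genes and the wider list were chosen with earlier results of these data known. Named genes were the 10 members, the ferritin-related rows, in each comparison up to 4 called genes of the wider list with the largest change and a mean of at least 10 CPM, and the 3 genes nearest in pattern to Ftl1, Fth1 and Lcn2. Same-numbered replicates were checked for shared deviations, with correlations from -0.47 to 0.73. Transcript sequences, lengths and GC came from GENCODE M21 (GRCm38). R 4.3.3, python 3.11.15, numpy 2.4.6 and pandas 2.3.3 were used.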

Additional observations from a re-analysis of the deposited data

Results flagged for a closer look

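In 3 of 50 sets of 4 libraries, 1 library stood apart from the other 3 by Dixon's test, where chance gives about 1 in 20. Ftl1 in RNY1+/+ EVFx replicate 4 was at 2803 CPM, above the other 3, in the library with the highest mean GC of its group (47.2%). Lcn2 in RNY1+/+ EVFx replicate 3 was at 13.01 CPM and Slc11a1 in RNY1-/- ProteinFx replicate 3 at 129 CPM, both below the other 3.

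For the same macrophages, the responses to the 2 kinds of fraction differed by the direct test between fractions. For RNY1+/+ material the log2 differences of ProteinFx from EVFx were -2.23 for Ftl1, 1.32 for Tfrc, -3.74 for Slc40a1 and -1.16 for Slc11a1. For RNY1-/- material they were 1.20 for Tfrc, -3.31 for Slc40a1 and -1.33 for Slc11a1. The EVFx levels of Ftl1 entered the choice of the set, so its test is not independent of that choice. With length and GC trends removed, the RNY1+/+ values of Tfrc and Slc11a1 came to 0.88 and -0.75. Of the RNY1+/+ values only those of Slc40a1 and Ftl1 were then called.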

How the results depend on the processing

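Leaving out each library in turn gave 6 called genes with RNY1+/+ EVFx against PBS, 5 to 6 with RNY1-/- EVFx, 3 with RNY1+/+ ProteinFx and 2 with RNY1-/- ProteinFx, 0 to 1 between the genotypes of ProteinFx, 4 and 3 between the fractions for RNY1+/+ and RNY1-/-, and 1 past 2-fold between the genotypes of EVFx. The count of 5 came without PBS replicate 3 or RNY1-/- EVFx replicate 3 (Slc39a14 lost), and the count of 1 between the genotypes of ProteinFx is Slc40a1, gained without RNY1+/+ ProteinFx replicate 2 or RNY1-/- ProteinFx replicate 2 or 3. With total counts in place of TMM, RNY1-/- EVFx against PBS had 3 calls, where 698 of all 10727 genes were called higher and 2138 lower. The genotypes of ProteinFx had 1, where 101 of all 10468 genes were called higher and 99 lower. That scaling moved the median log2 fold change of all genes by -0.18, -0.24 and -0.17 for RNY1+/+ EVFx, RNY1-/- EVFx and RNY1+/+ ProteinFx against PBS and by 0.18 for RNY1-/- ProteinFx against RNY1-/- EVFx. The share of higher calls among all genes then went from 50.1% to 37.6%, 40.1% to 24.6%, 42.0% to 29.5% and 53.7% to 68.8%, and from 36.1% to 50.5% between the genotypes of ProteinFx. With length and GC trends removed that share went from 44.1% to 56.2% for RNY1-/- ProteinFx against PBS, and among genes past 2-fold between the genotypes of EVFx from 18.97% to 54.1%. The genotypes of ProteinFx then had 1 call, RNY1+/+ ProteinFx against EVFx 2, and the genotypes of EVFx 0 genes past 2-fold. Without RNY1-/- ProteinFx replicates 3 and 4 (chosen after seeing the data) RNY1-/- ProteinFx against PBS had 1 call, with 60.5% of the calls among all genes higher, and the genotypes of ProteinFx 1. Without a threshold on fold change, 8 genes passed for RNY1+/+ ProteinFx and 5 for RNY1-/- ProteinFx against PBS, 2 between the genotypes of ProteinFx, and 9 and 7 between the fractions for RNY1+/+ and RNY1-/-. At a 1.5-fold difference 3 genes differed between the genotypes of EVFx, Ireb2 only just at 1.504-fold. The share of all genes past 1.5-fold is not given here. The median absolute log2 difference was 0.32 for the 10 genes and 0.33 over all genes tested, so this count does not set the 10 genes apart.

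With a replicate block the counts of calls were 6, 6, 3 and 2 against PBS, 0 between the genotypes of ProteinFx, and 4 and 3 between the fractions, as without it, and Ftl1 alone stayed past 2-fold between the genotypes of EVFx (1 gene). Same-numbered libraries correlated above 0.1 in every pair in 2 of 8 comparisons only, so the numbers were not taken as pairs. DESeq2, the other filters, the other rounding, all libraries in 1 fit, the summed ferritin rows and Gm56125 added to Ftl1 (chosen after seeing the data) left each count of calls within 1.5 times. The summed rows and the addition of Gm56125 could hardly do otherwise. Ftl1 and Fth1 held most counts of the summed rows, and Gm56125 followed Ftl1 closely. The causes of the changes above were not tested. Depth limits Lcn2 (from 26 counts in a library), Slc40a1 with ProteinFx (from 41) and Slc39a14 (from 45).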

Other observations

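Of the 4 genes of the eosinophil list, Epx had no count in any library, and Prg2 and Siglecf reached 0.463 and 2.64 CPM. The fourth, Ccr3, was at 6.15 to 13.3 CPM with PBS, 0.751 to 1.09 CPM with RNY1+/+ EVFx, 1.01 to 2.46 CPM with RNY1-/- EVFx, 14.2 to 19.1 CPM with RNY1+/+ ProteinFx and 9.64 to 16.3 CPM with RNY1-/- ProteinFx. A difference in this gene alone does not show that the list as a whole differed. Lcn2 had no close match in pattern: the nearest genes were Snrnp35, Creld2 and Snrpa1, each at 0.31, where Lcn2 itself varied by 0.52.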
